A study of Rattus norvegicus with 16 samples.

Results

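The 204 better-covered small nucleolar RNA (snoRNA) genes of rat aortic smooth muscle cells were described across 6 libraries of total input RNA. They were chosen by their level: all genes that the deposited expression table classed as snoRNA and that had a mean of at least 5 FPKM over those 6 libraries. FPKM counts fragments against each kilobase of a gene's length, after a scaling between libraries by the authors. The chosen genes made up 204 of 1654 snoRNA genes and of 32883 genes in all. Of the 1654, 1042 were listed at 0 in every library and 612 were above 0 in at least 1. Because the level chose the genes, their levels are a description and carry no test.

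The cells were primary aortic vascular smooth muscle cells of wild type rats, grown in medium with 20% fetal bovine serum. All 6 input cultures carried an adenovirus for 48 h. In the 3 control libraries it was the control virus, and in the 3 knockdown libraries it expressed a short hairpin RNA against Nat10, so virus infection was common to both groups. From cells under the same 2 viruses, RNA fragments of 100 to 200 nt had been pulled down by an anti-ac4C antibody, with 3 libraries a group. The mark, ac4C, is N4-acetylcytidine, an acetylated cytidine in RNA. RNA bound to the NAT10 protein (NAT10 RIP) came from 3 libraries of cells without virus. The animals' age and the number of animals per culture were not given in the sources used here. The series calls the replicates biological repeats and does not tell whether each had its own animal, so a p-value here reflects the spread among these libraries, which may be technical.

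Small nucleolar RNAs are short noncoding RNAs that guide the chemical modification of ribosomal RNA in the nucleolus. Box C/D snoRNAs bind fibrillarin and direct 2′-O-methylation, box H/ACA snoRNAs bind dyskerin and direct pseudouridylation, and a few, such as U3, U8, U14, U17 and U22, are needed for cutting the ribosomal RNA precursor. Most mammalian snoRNAs are cut out of introns of host genes, many of which encode ribosomal proteins. NAT10 is the enzyme that acetylates cytidines of 18S ribosomal RNA, and it uses box C/D snoRNAs as adaptors there.

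Library values are listed in the order of libraries 1 to 3 of each group. Nat10 itself read 7.69, 9.22 and 9.95 FPKM in the control and 4.38, 3.68 and 4.58 FPKM in the knockdown libraries. The groups did not overlap, and the log2 difference was -0.93 (SE 0.19), with a Benjamini-Hochberg adjusted p of 0.227 in limma. The recovered fragments numbered 6418188 to 12066096 a library, and in these totals the 3 control libraries lay above every knockdown library. By the divisors inferred for the authors' scaling the groups overlapped. Those ran from 7814625 to 11504349 in the control and from 6897608 to 8165892 in the knockdown libraries. Of the smooth muscle markers, all 8 were above 0 in at least 1 library, and their summed FPKM ran from 4172 to 5692 in the control libraries and from 674 to 3286 in the knockdown libraries. Des, which encodes desmin, had the lowest group means of these markers, 0.224 and 0.190 FPKM. The endothelial markers summed to 0.380 to 0.724 FPKM in the control and 0.640 to 0.973 in the knockdown libraries, with Cldn5 at 0 throughout. The leukocyte markers summed to 3.83 to 5.66 FPKM in the control and 5.28 to 11.9 in the knockdown libraries, most of it from Cd68, and Cd3e was at 0 throughout. What part the lower smooth muscle markers or the difference in recovered totals had in the snoRNA values was not tested.

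As a group, the snoRNA genes sat higher in the knockdown libraries. They took 0.187%, 0.203% and 0.190% of all recovered fragments in the control libraries, and 0.286%, 0.322% and 0.329% in the knockdown libraries. Every knockdown library was above every control library, with 16388 to 22553 snoRNA fragments behind the control shares and 18362 to 24583 behind the knockdown shares. In summed FPKM the same genes held 3.30%, 3.93% and 3.65% of the control libraries and 5.10%, 5.36% and 5.67% of the knockdown libraries. In bulk RNA, a change in the number of cells of a type and a change in RNA per cell cannot be told apart. As a share, it also moves with the rest of the library: protein-coding genes took 97.5% to 97.6% of fragments in the control and 94.6% to 96.5% in the knockdown libraries, and long intergenic noncoding genes 0.980% to 1.01% and 1.72% to 3.63%.

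**Figure D1:**
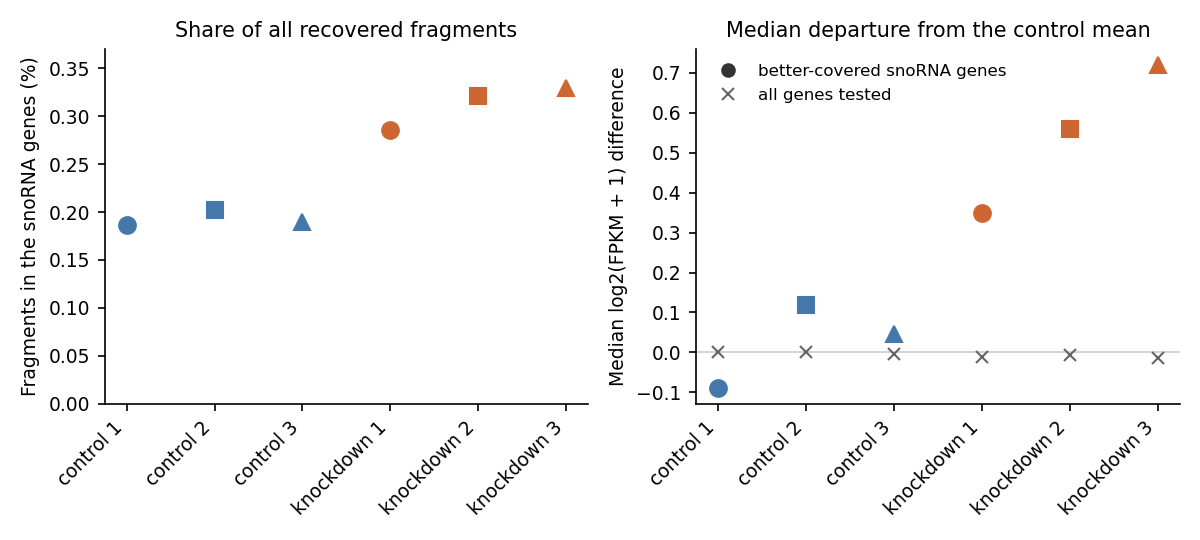
The left panel plots the percentage of recovered fragments in the 204 snoRNA genes for each input library, and the right panel plots the median over genes of the difference in log2(FPKM + 1) from the control mean, with crosses for all 13450 genes tested. The knockdown libraries lie at 0.286% to 0.329% and at medians of 0.35 to 0.72, above the control libraries in both panels.

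The libraries also differed among themselves. The median snoRNA gene departed from its control mean by -0.09, 0.12 and 0.05 on the log2(FPKM + 1) scale in the control libraries, and by 0.35, 0.56 and 0.72 in the knockdown libraries. Over all 13450 genes tested the same medians lay between -0.01 and 0.00 in every library. Knockdown library 3 was the highest of the 6 for 96 of the 204 genes, knockdown library 2 for 56 and knockdown library 1 for 19. For the remaining genes a control library was the highest, in 1 case control library 1. The lowest value was in a control library for 167 genes.

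Mean levels ran from 5.13 to 2596 FPKM. The median gene had a mean of 25.1 FPKM, 44 genes had at least 100 FPKM and 45 had less than 10. The 10 most abundant genes held 50.2% of the summed FPKM of all 204. FPKM divides by gene length, and snoRNA genes are short: the fragment numbers recovered from the deposited values gave lengths of 38 to 328 nt, with a median of 90.5 nt. High FPKM thus rested on few fragments, a median of 122.5 over all 6 libraries together and a range of 17 to 10413, and 10 genes had fewer than 30. Lengths fell into a group of 111 genes from 60 to under 100 nt and a group of 77 genes from 110 to under 160 nt, the ranges known for box C/D and box H/ACA snoRNAs. A recovered length is the smallest that gives whole fragments, so it may be a divisor of the true one, and the fragments then too few by the same factor. Where the peak lists gave a snoRNA gene's length, the recovered length equalled it for 285 of 297 genes (10 of 11 among the 204) and divided it for the other 12. For 3 of the 204 it was under 50 nt. Over genes of all classes with a listed row it equalled the row's length for 4837 of 7556 and divided it for 5153, those 4837 included, so totals over all genes are less certain than snoRNA fragments.

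The deposited table names these genes by Rfam accession, the identifier of an RNA sequence family, so that copies of 1 family carry 1 name. The 204 genes fell into 136 families, of which 94 had 1 gene and 42 had 2 to 6. Copies of a family are close in sequence. How reads that match several copies, or that come from the intron around a snoRNA, were counted was not given in the sources used here, so values of single copies are uncertain. The labels name a stranded mRNA library kit, while mature snoRNAs carry no poly(A) tail, and what share of the cells' snoRNA such a library retains was not tested.

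The 2 most abundant genes were copies of box C/D families that guide methylation of 28S ribosomal RNA. RF00069, the SNORD24 family (ENSRNOG00000060649), read 2112, 2556 and 2136 FPKM in the control and 2521, 2697 and 3557 FPKM in the knockdown libraries. Its groups overlapped, since control library 2 lay above knockdown library 1. RF00281, the SNORD47 family (ENSRNOG00000057278), read 1742, 2307 and 2016 against 2342, 2627 and 3794 FPKM, with no overlap by a narrow margin. The log2 differences were 0.36 (SE 0.33) and 0.51 (SE 0.35), with adjusted p = 0.690 and 0.586 in limma. Levels of these 2 genes differed by less than their spread over libraries.

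RF00593 (ENSRNOG00000058269) came next, at 1308, 1552 and 1423 FPKM in the control and 1658, 2196 and 2833 FPKM in the knockdown libraries, without overlap. RF00554 (ENSRNOG00000060816) read 825, 1068 and 1005 against 1183, 1005 and 1560 FPKM, and knockdown library 2 fell among the control values. The others of the first 10 lay between 428 and 728 FPKM in the control mean. Among them, RF00581 (ENSRNOG00000054081) read 619, 617 and 539 against 769, 807 and 1123 FPKM, and its groups were apart. RF00289 (ENSRNOG00000056422) read 448, 536 and 498 against 669, 791 and 849 FPKM, and RF00271 (ENSRNOG00000057905) read 368, 435 and 481 against 596, 711 and 964 FPKM. Both had every knockdown library above every control library. RF00067, the SNORD15 family (ENSRNOG00000055569), read 622, 541 and 468 against 479, 778 and 847 FPKM and overlapped.

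**Figure D2:**
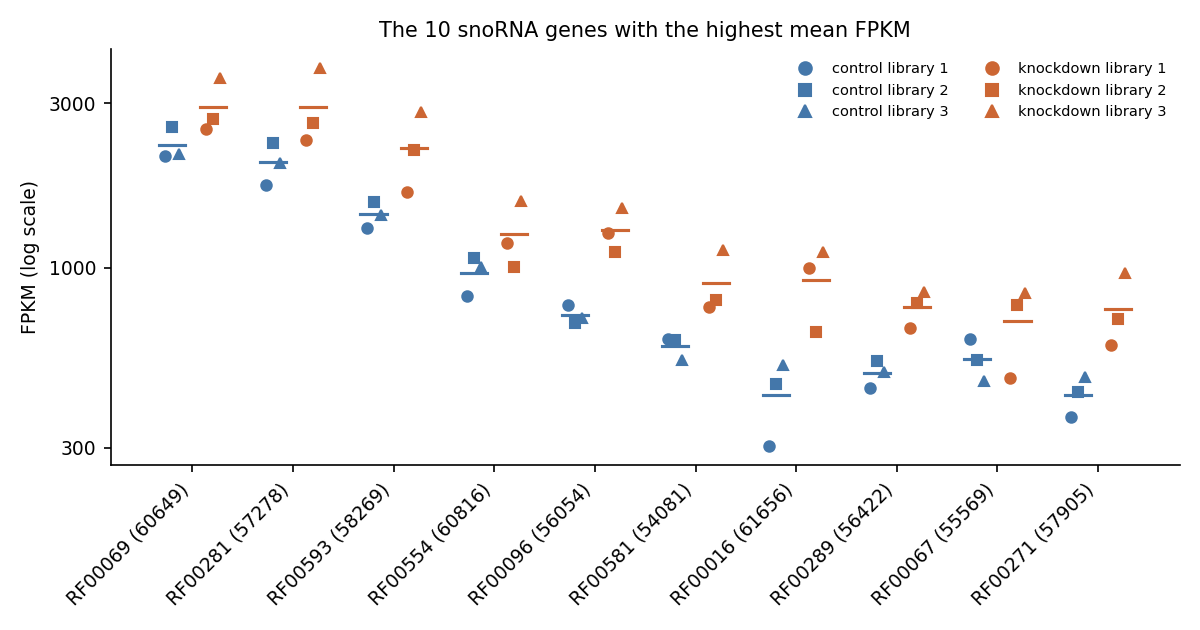
FPKM on a log axis of the 10 snoRNA genes with the highest mean, with 1 point per input library, a bar for each group mean and the last 5 digits of the Ensembl identifier in parentheses. The knockdown mean is above the control mean for each of the 10, and the points of the groups overlap for RF00069, RF00554 and RF00067.

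Of the snoRNAs named above as needed for cutting the ribosomal RNA precursor, U8, U14, U17 and U22 had covered genes, in 4 families. Other families were not examined for such a role. U8, family RF00096, is a box C/D snoRNA needed for the 5.8S and 28S RNAs of the large subunit. Its covered copy (ENSRNOG00000056054) read 778, 691 and 717 FPKM in the control and 1259, 1112 and 1490 FPKM in the knockdown libraries, from 734 to 1398 fragments each. The lowest knockdown library stood well above the highest control library. Group means stood at 728 ± 44.8 and 1287 ± 191 FPKM (SD, n = 3 libraries in each), a 1.77-fold ratio, and the log2 difference was 0.81 (SE 0.25). Its unadjusted limma p-value of 0.0133 became adjusted p = 0.308.

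U14, family RF00016, is a box C/D snoRNA that pairs with 18S ribosomal RNA and is needed for its maturation. All 4 of its genes in the table passed the level rule. The most abundant copy (ENSRNOG00000061656) read 303, 458 and 523 FPKM in the control and 1001, 649 and 1113 FPKM in the knockdown libraries. The second (ENSRNOG00000060267) read 297, 399 and 436 against 729, 573 and 891 FPKM. The third (ENSRNOG00000054774) read 117, 166 and 180 against 397, 236 and 498 FPKM. In all 3 copies the same order held, with control library 1 lowest, knockdown library 2 lowest of the knockdown libraries and knockdown library 3 highest. The fourth copy (ENSRNOG00000057762) rested on 24 fragments in all and overlapped, with control library 3 at 0. Its control mean was under 5 FPKM, so it met the level rule only through the knockdown libraries. Summed over the 4 copies, U14 read 724, 1027 and 1140 FPKM in the control and 2134, 1467 and 2506 FPKM in the knockdown libraries, so every knockdown library exceeded every control library. The log2 differences of the first 3 copies were 1.10 (SE 0.32), 0.95 (SE 0.27) and 1.24 (SE 0.32), with adjusted p = 0.304, 0.299 and 0.279 in limma. With library quality weights the third passed the threshold (limma adjusted p = 0.0453), and over its 17 alternatives adjusted p ran from 0.0453 to 0.797.

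U17, family RF00045, is a box H/ACA snoRNA that acts in 18S processing rather than as a modification guide. It had 6 covered genes of 17 in the table. Its most abundant copy (ENSRNOG00000061536) read 237, 156 and 183 FPKM in the control and 302, 311 and 427 FPKM in the knockdown libraries, without overlap (log2 difference 0.85, SE 0.24, adjusted p = 0.300 in limma). A weaker copy (ENSRNOG00000052528) read 9.80, 14.4 and 10.1 against 18.1, 29.4 and 28.4 FPKM, also without overlap. The other 4 copies overlapped, and in each of them control library 1 lay above at least 1 knockdown library. Their log2 differences ran from 0.52 to 0.64. Family sums were 528, 322 and 342 against 554, 658 and 760 FPKM.

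U22, family RF00099, is a box C/D snoRNA of 18S processing. Its covered copy (ENSRNOG00000056397) read 60.7, 53.8 and 63.2 FPKM in the control and 44.5, 110 and 90.9 FPKM in the knockdown libraries. Knockdown library 1 was the lowest of the 6, so the groups overlapped, and limma gave a log2 difference of 0.36 (SE 0.33) with adjusted p = 0.679. Its sign turned with library quality weights, to -0.022. U3, the snoRNA at the core of the small-subunit processome, had no gene among the 204: of 16 genes of the U3 families in the table, 3 were above 0 and the highest mean was 0.533 FPKM.

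**Figure D3:**
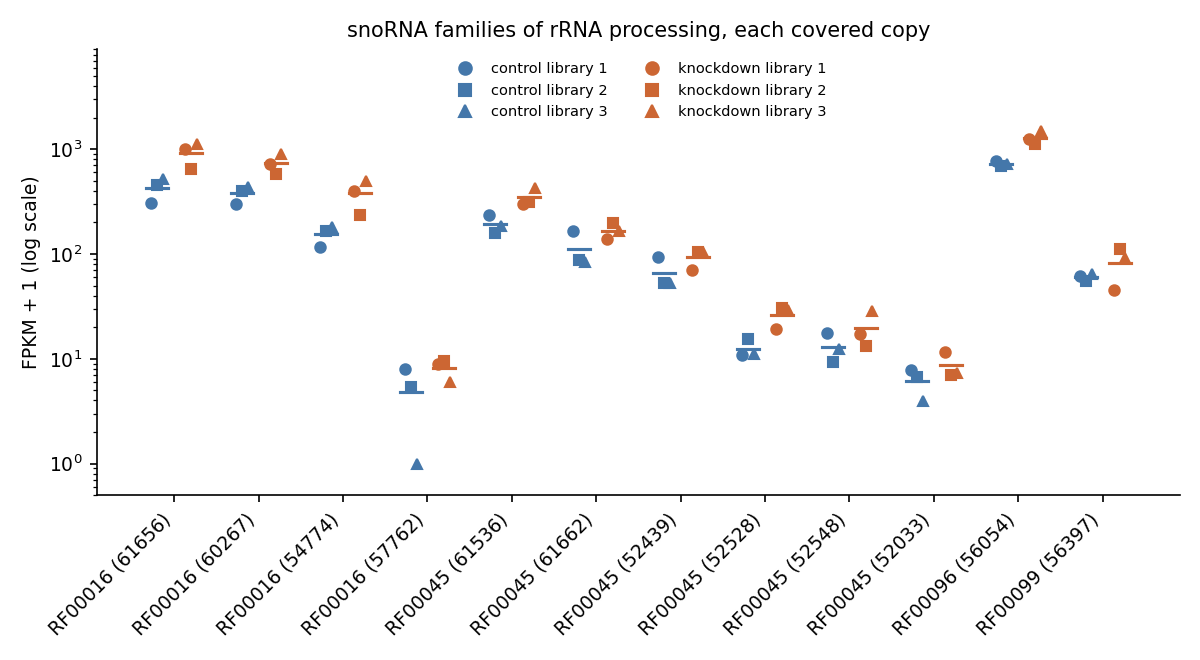
FPKM + 1 on a log axis of the covered copies of U14 (RF00016), U17 (RF00045), U8 (RF00096) and U22 (RF00099), with 1 point per input library and a bar for each group mean. Groups are apart for 3 copies of U14, 2 of U17 and the U8 copy, and overlap for the other copies.

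Over all 204 genes, the knockdown against control comparison gave mostly small positive differences, none of which passed the adjusted threshold. All 204 had a mean of at least 1 FPKM, the minimum for testing. Limma on log2(FPKM + 1) called 0 of 13450 genes at an adjusted p under 0.05, 0% of those tested, and so 0 of the 204, with a lowest adjusted p of 0.155. The log2 difference was positive for 177 and negative for 27, with a median of 0.53 against -0.01 over all genes tested. The median ratio of group means was 1.47. At an unadjusted p under 0.05, 63 snoRNA genes were higher while 3 were lower, which is 30.9% and 1.47%, where 5.53% and 6.95% of all genes tested were. Every knockdown library was above every control library for 65 of the 204 and below for 2, against 9.63% and 10.9% of all genes. Voom on the recovered fragments called 0 of the 204 after adjustment and left 39 higher at unadjusted p under 0.05, where it had 5.42% of all genes tested. Limma with library quality weights called 4 of the 204 (RF00377, RF00576, RF00272 and the third U14 copy), a share no larger than the 2.49% it called over all genes. Over all genes, 744 were higher against 935 lower, and 1124 against 569 when libraries were scaled to the recovered fragment total, which moved the median of all genes to 0.12 and that of the snoRNA genes to 0.68. No p is given for the list, because its genes were chosen with results of these data known.

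The level rule can favour genes that are high in 1 group only. The control mean was under 5 FPKM for 17 genes and the knockdown mean for 5. With these left out, 182 genes had a median log2 difference of 0.52, with 56 higher and 3 lower at unadjusted p under 0.05. Of the 147 genes at 5 FPKM or more in all 6 libraries, 131 were positive, with a median of 0.57. With 1 gene per family, 136 genes had a median of 0.58. Just above the level threshold stood RF00406 (ENSRNOG00000059051) at a mean of 5.13 FPKM, RF00404 (ENSRNOG00000057075) at 5.34 and a copy of RF00560 (ENSRNOG00000057947) at 5.35. Just below it stood copies of RF00561, RF00156 and RF00613 at 4.97, 4.95 and 4.93 FPKM.

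The direction was the same for all 44 genes with a mean of at least 100 FPKM, whose median log2 difference was 0.61 and whose groups were apart upward for 23. For the 69 genes from 20 to under 100 FPKM, 60 were positive with a median of 0.58. For the 91 genes from 5 to under 20 FPKM, 73 were positive with a median of 0.45. That last range takes in genes that met the level rule only through 1 group, such as RF00377, so its values are a description. Among the 172 snoRNA genes of 1 to under 5 FPKM, which the rule left out, 109 were positive with a median of 0.27. The log2(FPKM + 1) scale compresses differences of low genes. By length, the 113 genes under 100 nt had a median of 0.60 with 100 positive, and the 91 longer genes a median of 0.47 with 77 positive. These medians were not tested against each other.

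**Figure D4:**
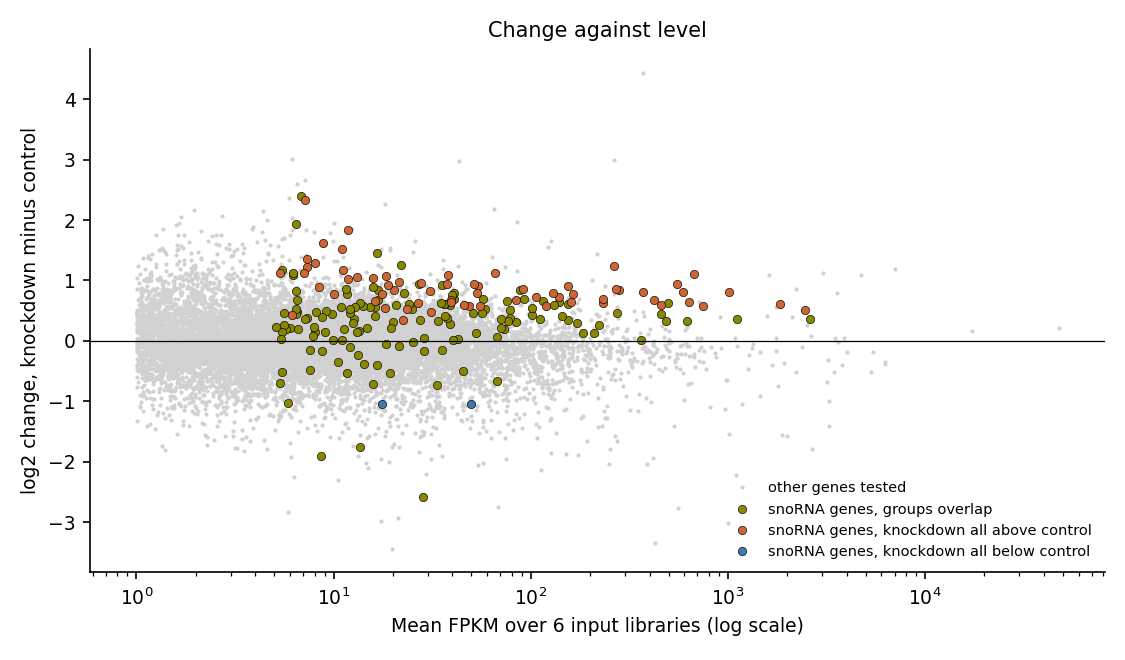
Log2 difference between knockdown and control against mean FPKM on a log axis, with grey points for other genes tested and coloured points for the 204 snoRNA genes. The 65 orange genes, with every knockdown library above every control library, reach from the lowest to the highest levels of the 204, and 2 blue genes have the opposite order.

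The 6 snoRNA genes with the smallest p among those higher in knockdown were mostly of low level. Of these, RF00377 and the first copy of RF00056 had a control mean under 5 FPKM and met the level rule only through the knockdown libraries, so their differences are a description and support nothing about the group. RF00377 (ENSRNOG00000057709) read 4.74, 3.49 and 3.29 FPKM in the control and 11.2, 14.5 and 15.8 FPKM in the knockdown libraries, from 3 to 13 fragments a library. The libraries of each group lay close together, and the log2 difference was 1.61 (SE 0.21), with an unadjusted limma p-value of 0.00012 and adjusted p = 0.155. When libraries were weighted by quality the limma adjusted p was 0.0233, in a range of 0.0233 to 0.730 over 17 alternatives. RF00440 (ENSRNOG00000060818) read 2.72, 6.0 and 7.54 against 17.1, 19.1 and 13.6 FPKM. RF00264 (ENSRNOG00000059404) read 7.14, 8.59 and 6.30 against 16.3, 11.9 and 20.6 FPKM. Both had groups apart, with log2 differences of 1.53 (SE 0.33) and 1.03 (SE 0.23).

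RF00056, the SNORA71 family of box H/ACA guides, gave 2 of these 6 genes. In the 2 copies that reached 5 FPKM in both group means, and in the first copy, which did not, the groups were apart. The first copy (ENSRNOG00000056385) read 3.34, 5.91 and 3.71 against 12.6, 10.4 and 12.3 FPKM, and the second (ENSRNOG00000059422) 20.0, 20.3 and 25.8 against 45.5, 37.9 and 35.7 FPKM. The third (ENSRNOG00000058944), given with its family, read 19.8, 20.4 and 17.4 against 26.9, 27.8 and 29.7 FPKM. Family sums were 43.1, 46.6 and 46.9 against 85.1, 76.1 and 77.6 FPKM and did not overlap. The copies' log2 differences were 1.29 (SE 0.23), 0.82 (SE 0.18) and 0.53 (SE 0.15), with adjusted p = 0.198, 0.257 and 0.292 in limma. The sixth gene of smallest p was the U17 copy ENSRNOG00000052528, at adjusted p = 0.266.

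Genes lower in knockdown were few. RF00592 (ENSRNOG00000055990) read 63.2, 46.5 and 95 FPKM in the control and 26.9, 37.1 and 30.8 FPKM in the knockdown libraries, with no overlap and a log2 difference of -1.04 (SE 0.28, adjusted p = 0.283 in limma). RF00398 (ENSRNOG00000051716) read 21.2, 36.3 and 7.60 against 2.15, 4.82 and 9.13 FPKM and overlapped through control library 3 and knockdown library 3. RF00156, the SNORA70 family (ENSRNOG00000054339), read 23.0, 27.3 and 18.6 against 13.1, 14.4 and 19.2 FPKM. Its groups overlapped as well, and these were the only 3 snoRNA genes lower at an unadjusted p under 0.05. RF00287, RF00273 and a copy of RF00394 followed with log2 differences of -0.66, -1.03 and -0.49 and adjusted p = 0.455, 0.464 and 0.509 in limma. RF00561 (ENSRNOG00000057749, named here after its values were seen) was the other gene with groups apart downward. It read 10.9, 9.0 and 60.3 against 8.54, 8.61 and 7.93 FPKM, so the difference was nearly all in control library 3.

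Of the 15 families with at least 3 covered copies, 11 had a positive log2 difference in every copy. The count takes in copies that met the level rule only through the knockdown libraries, such as the first of RF00056 and the fourth of U14. It is therefore a description, and a count without such copies was not made. The exceptions were RF00560, RF00156, RF00398 and RF00408. RF00560, with 675 genes the family with most copies in the table, had 6 covered copies, of which 3 were positive and none had groups apart. RF00156 had 2 positive copies of 4, RF00398 1 of 3 and RF00408 2 of 3. Copies of a family share sequence and possibly reads, so they are not separate witnesses of a difference.

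For 10 genes, more than 50% of the summed FPKM came from 1 library, and 3 of those described were chosen after their values were seen: the copy of RF00494 and both of RF00181. A copy of RF00560 (ENSRNOG00000051738) had 51 fragments in control library 2 and none in the other 5 libraries. A copy of RF00494 (ENSRNOG00000059321) read 69.5, 94.4 and 0 FPKM in the control and 1.71, 3.06 and 1.81 FPKM in the knockdown libraries. It met the level rule only through the control libraries, so its difference is a description. Its control library 3 went against the other 2, and without that library limma gave a log2 difference of -4.71 and an adjusted p of 0.0240, in a range of 0.0240 to 0.897 over its 17 alternatives. Both covered copies of RF00181, the SNORD113 family of the imprinted Dlk1-Dio3 region, were near 0 in the control libraries. Both met the level rule only through the knockdown libraries, so their differences are a description and support nothing about the group. ENSRNOG00000052358 read 38.6 FPKM in knockdown library 1 against 1.44 and 1.71 in the other knockdown libraries, and ENSRNOG00000056648 read 7.94, 0 and 32.0 FPKM in knockdown libraries 1 to 3. Each of these differences was carried by 1 or 2 libraries.

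Other small noncoding classes with a mean of at least 5 FPKM stood on both sides of zero. The small Cajal body RNAs (scaRNA), which guide modification of spliceosomal RNAs and share the box C/D and H/ACA proteins, had a median log2 difference of 0.40, with 9 of 10 genes positive and 4 higher at an unadjusted p under 0.05. Spliceosomal snRNA genes had a median of 0.40, with 50 of 70 positive, 8 higher and 1 lower. Genes classed as rRNA, the mitochondrial ones apart, had a median of 1.40, with 13 of 15 positive and 6 higher, and the whole rRNA class's share of fragments ran from 0.0380% to 0.0629% in the control and 0.0600% to 0.149% in the knockdown libraries. MicroRNA genes had a median of -0.14, with 54 of 131 positive, 3 higher and 15 lower. Over all genes tested, 48.6% were positive, and 5.53% were higher and 6.95% lower at the same unadjusted p in limma. The differences between classes were not tested. Protein-coding genes with a mean of at least 5 FPKM were centred near 0, at a median of -0.03.

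**Figure D5:**
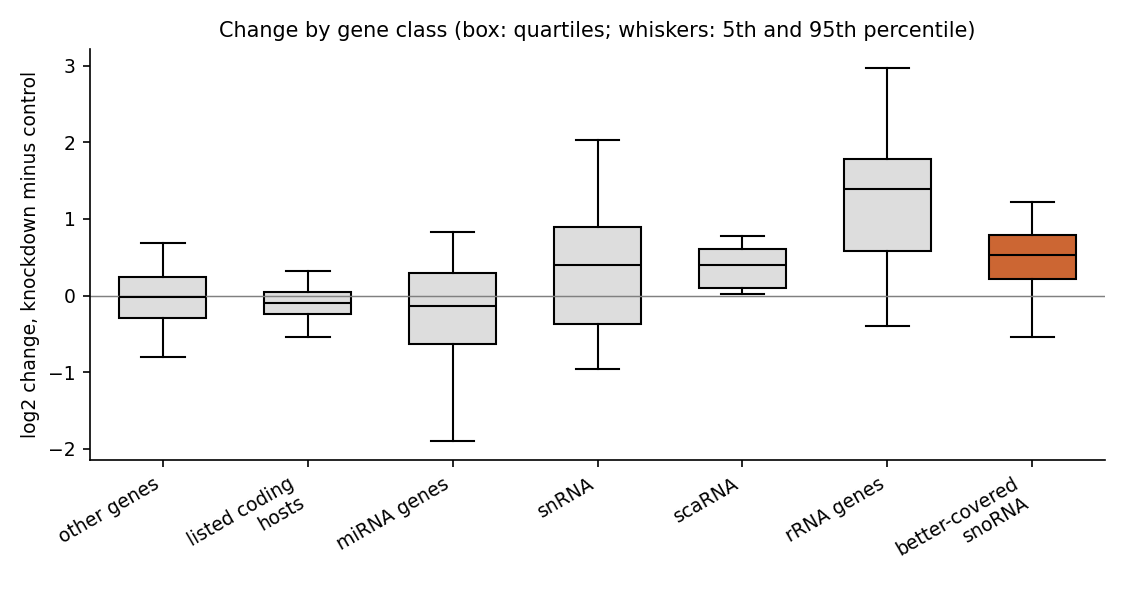
Log2 difference between knockdown and control by gene class, with boxes from the lower to the upper quartile, a line at the median and whiskers at the 5th and 95th percentile. The 204 snoRNA genes have a median of 0.53, scaRNA and snRNA genes of 0.40 each, rRNA genes of 1.40, and the listed coding hosts of -0.10.

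Genes that host snoRNAs had differences centred near 0. A list of 55 protein-coding genes known to carry snoRNAs in their introns matched 60 table rows, some symbols having several, and 59 were tested. None passed an unadjusted p of 0.05, where 5.53% of all genes tested did so upward and 6.95% downward. By sign, 19 were positive and 40 negative, with a median of -0.10. Of 20 listed noncoding hosts such as Gas5 and Snhg1, only Snhg11 was in the table, near 0, so none was tested. By position, 2 snoRNA genes lay within the span of a peak row of another gene, which was taken as the host. They were RF00438 (ENSRNOG00000054517) in Rps12, a small-subunit protein gene, and RF00413 (ENSRNOG00000061657) in Eif3a, a translation initiation factor gene. RF00438 read 2.74, 9.07 and 8.55 against 5.38, 4.82 and 2.28 FPKM, and Rps12 read 484, 384 and 386 against 291, 474 and 490 FPKM. Both overlapped between groups. RF00413 read 7.24, 11.6 and 4.57 against 8.28, 23.2 and 14.3 FPKM and overlapped, while Eif3a, at 85.7, 88.1 and 92.7 against 118, 111 and 108 FPKM, did not (log2 difference 0.33, SE 0.15, adjusted p = 0.416 in limma).

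None of the tested genes for the core proteins that bind snoRNAs differed at an unadjusted p under 0.05. Of all genes tested, 5.53% passed it upward and 6.95% downward. The 4 box C/D core proteins had a median log2 difference of -0.02. Fbl, which encodes the methyltransferase fibrillarin, read 27.7, 28.2 and 32.1 FPKM in the control and 39.6, 20.1 and 38.8 FPKM in the knockdown libraries. Nop58 read 68.8, 67.8 and 77.3 against 113, 74.7 and 98.6 FPKM. Of the 4 box H/ACA core proteins 3 were tested, with a median of 0.05, and Dkc1, which encodes the pseudouridine synthase dyskerin, read 49.7, 59.3 and 56.4 against 79.9, 39.2 and 47.4 FPKM. Nhp2 had a mean under the minimum for testing. Knockdown libraries varied more than control libraries in Fbl and Dkc1.

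Genes for assembly of the particles and for the processome in which U3 works had mostly positive differences. Of 12 assembly genes, 9 were positive with a median of 0.27, and 2 were higher at an unadjusted p under 0.05. Ruvbl2, an ATPase of the assembly complex, read 31.4, 34.6 and 29.9 FPKM in the control and 49.3, 52.1 and 48.7 FPKM in the knockdown libraries (log2 difference 0.63, SE 0.14, adjusted p = 0.266 in limma). Naf1, an assembly factor of H/ACA particles, read 2.60, 2.24 and 2.31 against 4.26, 3.73 and 6.63 FPKM. Both had groups apart. Of 22 processome genes tested, 17 were positive with a median of 0.31. At unadjusted p under 0.05 in limma 8 were higher and 1 was lower, and none passed the adjusted threshold. The shares higher and lower were 36.4% and 4.55% here and 16.7% and 0% for assembly, against 5.53% and 6.95% of all genes tested. Over all genes tested, 48.6% were positive. Nol6 read 9.48, 9.07 and 9.08 against 18.5, 13.2 and 17.8 FPKM, and Wdr3 read 10.01, 9.83 and 11.6 against 15.1, 18.4 and 16.7 FPKM. Mphosph10, which encodes a U3-associated protein, was the lower one, at 14.9, 14.1 and 18.6 against 11.9, 10.7 and 11.5 FPKM.

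Peaks under the snoRNA genes' own identifiers were rare. The authors deposited 1 peak list for each of the 6 ac4C and 3 NAT10 RIP libraries, with a p-value per peak. None of the 204 genes had a row in any NAT10 RIP list, whereas 5.88% to 6.33% of the 9122 other genes with at least 5 FPKM did. Those other genes were matched on FPKM only, while the snoRNA genes had a median of 90.5 nt and of 122.5 fragments. What part length and fragment number had in this contrast, and in that for ac4C below, was not tested. In the ac4C lists 16 of the 204 had a row. In control lists 1 and 2, however, 26881 of 29998 rows and 27673 of 29593 rows carried 1 shared p-value, 0.045 and 0.046, and without those rows 5 snoRNA genes were left. Per list that was at most 0.980% of the 204, against 15.8% to 26.1% of the other genes. The immunoprecipitated fragments of 100 to 200 nt were as long as a whole snoRNA, and the share of them the peak caller could place was not tested.

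Each of the 5 genes had its row in a single list. RF00090 and RF00438 were chosen after their values were seen. For RF00090, the SNORA74 family (ENSRNOG00000061440), the row of control list 1 had an authors' p-value of 0.0022 at chr16:8337892-8338058 on the minus strand, and for RF00428 (ENSRNOG00000054091) the row of the same list had 0.0052 at chr20:5153014-5153120 on the minus strand. In control list 3, the U22 copy had a row with an authors' p-value of 0.012 at chr1:224923832-224923957 on the plus strand, and RF00191 (ENSRNOG00000054533) had one with 0.013 at chr1:225084989-225085107 on the minus strand. Coordinates are those of the lists, and rn6 is the rat build that the submitters' processing notes name. The remaining row had the smallest p-value of the 5: the most abundant U17 copy had 2.5e-47 in knockdown list 2, at chr5:150529742-150529901 on the minus strand. No row was found for it in the other 5 ac4C lists.

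The levels of these genes differed in input RNA. RF00090 read 4.01, 9.84 and 8.04 FPKM in the control and 5.60, 14.4 and 12.6 FPKM in the knockdown libraries. RF00428 read 12.3, 22 and 14.4 against 74.4, 22.9 and 17.3 FPKM, its high value being in knockdown library 1. RF00191 read 103, 83.0 and 71.7 against 93.2, 132 and 122 FPKM. Groups overlapped in all 3. None of the 10 most abundant snoRNA genes had a peak row.

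Both hosts by position had been found through their peak rows, so lying inside such a row was fixed by the search and is no result. RF00438 lay within the span of a row of Rps12 in each of the 6 ac4C lists, on the same strand. The authors' p-values ran from 7.9e-15 in knockdown list 2 to a value listed as 0 in knockdown list 3. Those rows were built of 2 or 3 blocks, as a spliced transcript gives, and the snoRNA's own position, chr1:22759963-22760089, lay within their span. RF00413 lay within the span of a row of Eif3a in NAT10 RIP list 3, built of 2 blocks, with an authors' p-value of 1.31e-12. Whether either snoRNA lay in a block or in a gap between blocks was not tested. Only 16 of the 204 genes had a position in the deposited lists, so overlap by position could not be read for the others.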

How the data were processed

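The authors deposited FPKM for the 6 input libraries in 1 table, scaled by a divisor per library. The submitters' processing notes name the builds rn6, GRCm38 and GRCh38 and, without roles, the tools featureCounts 1.6.3, HISAT2 2.1.0, HOMER 4.10.4, cutadapt 2.5 and DESeq2. Per the file headers, each NAT10 RIP list holds a log2 enrichment, a p-value, a -log10 p and a score per peak. The deposited ac4C lists hold a p-value per peak, and whether it is adjusted was not given in the sources used here, nor were the peak callers and the control of the RIP enrichment, and the non-immunoprecipitated library was not analysed here.

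Genes with a mean of at least 1 FPKM (13450) were tested on log2(FPKM + 1) in R 4.3.3. The limma 3.58.1 fit had group as its single term and a mean-variance trend, was read two-sided and used Benjamini-Hochberg adjustment at 0.05. That scale understates differences of low genes. Whole fragments in all 6 libraries were recovered from FPKM for 21401 of 21401 genes above 0 and for 0 of 500 genes with altered decimals (tolerance 2e-08 relative, 1e-06 absolute). On simulated data for this comparison (13245 genes), limma recovered 37.6% of 2-fold and 94.8% of 4-fold differences, with 14 false calls. Every gene and library was simulated with the same dispersion, whereas the quality weights of the real libraries ran from 0.2355 to 3.797. The simulated shares therefore do not give the power of the comparison in the real libraries.

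The snoRNA genes and the gene lists were chosen with earlier results of these data known. Named genes were the 10 highest, the 6 of smallest p in each direction, up to 12 with a peak row, families of rRNA processing, 3 genes on each side of the level threshold, up to 4 per protein list, and Nat10. Beyond that rule, 7 snoRNA genes, Mphosph10, Rps12 and Eif3a were named after their values were seen. Classes by SNORD or SNORA name could not be applied, since the table names families by Rfam accession. Family names come from general knowledge. None of the 204 genes matched the RefSeq table by Ensembl identifier, so no sequence is shown.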

Additional observations from a re-analysis of the deposited data

How the results depend on the processing

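For 51 named snoRNA genes and 11 named protein-coding genes, 17 refits gave 1053 values, of which 1028 kept direction and side of the threshold. Another 5 passed it (RF00377, the third U14 copy, Nol6 and Nat10 with library quality weights, RF00494 without control library 3), and 20 reversed or fell to 0. The snoRNA median stayed between 0.41 and 0.68 on the log2 scale. Library quality weights called 335 genes and 4 snoRNA genes at an adjusted p under 0.05, and at unadjusted p under 0.05 left 1610 genes higher against 1910 lower. Averaging control libraries 2 and 3 left 331 higher and 485 lower. Scaling to the recovered fragment total, added after seeing the data, gave 1124 higher and 569 lower against 744 and 935 before, and moved the median of all genes from -0.01 to 0.12 and that of the snoRNA genes to 0.68. Leaving out each library in turn called 0 to 1 genes and 0 to 1 snoRNA genes, with 356 to 1146 genes higher and 468 to 1431 lower; the highest counts were without knockdown library 3 and the lowest without control library 2 or 3. For snoRNA genes these fits gave 49 to 73 higher and 1 to 5 lower. Voom on the recovered fragments left 39 snoRNA genes higher. The count of lower snoRNA genes was 5 at a minimum of 2 FPKM (313 genes) and 1 with 1 gene per family, the latter added after seeing the data. The count with an ac4C row of 16 became 5 without rows at the shared p. It became 7 when position overlap with rows of other genes in any list, NAT10 RIP included, was added. Of the genes so added, RF00438 lay within ac4C rows of Rps12, and RF00413 only within a NAT10 RIP row of Eif3a. RF00560 ENSRNOG00000051738 fell to 0.00 without control library 2, the only library with its fragments, so no sign turned there (range -2.86 to 0.00). The sign turned for RF00560 ENSRNOG00000052131 (0.042 without control library 2, 0.072 with knockdown library 1 left out, 0.027 with knockdown library 2 left out, range -0.58 to 0.072). It turned for RF00408 ENSRNOG00000053589 (0.66 without control library 3, range -2.01 to 0.66) and RF00406 ENSRNOG00000059051 (-0.21 without control library 3, range -0.21 to 0.53). With quality weights it turned for RF00099 (-0.022) and RF00090 (-0.16). It also turned for Fbl (without a knockdown library, range -0.062 to 0.41), Dkc1 (0.20 with quality weights, 0.024 with quantile normalization, 0.10 with the fragment total; range -0.34 to 0.16) and Rps12 (0.034 with quantile normalization, 0.12 with the fragment total; range -0.16 to 0.21). The ranges given for these genes are those over fits with 1 library left out. Except where libraries were left out, the cause of a turned sign was not tested. Replicate numbers did not pair the samples: deviations of same-numbered libraries correlated at -0.21, -0.28 and 0.18, and with the replicate number as a block 63 snoRNA genes were higher and 3 lower, with 500 and 676 over all genes. Depth limits the low genes, of which 10 had fewer than 30 fragments in all.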

Other observations

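The U3 families, whose genes were at or near 0 FPKM in input RNA, did carry ac4C rows. At chr2:146466883-146467094, on the plus strand, rows under 2 overlapping U3 gene identifiers (ENSRNOG00000052744, RF00012, and ENSRNOG00000056601, RF01848) were present in all 3 control lists and in knockdown lists 1 and 2, with slightly different ends. For ENSRNOG00000052744 the authors' p-value was 0.0014, 0.00023 and 0.00045 in control lists 1 to 3, and 1.2e-05 and 1.6e-11 in knockdown lists 1 and 2. Its mean was 0 FPKM in the input table. A further pair of U3 identifiers at chr10:74778216-74778404 had rows in control list 1 (authors' p-value 0.013) and knockdown list 1 (3.3e-07). U3 binds the ribosomal RNA precursor at the start of 18S processing. The identifiers of a pair overlap in position, and how reads were divided between them was not tested.

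An RF00045 (U17) gene below the level rule (ENSRNOG00000054209, 0 FPKM in input RNA) had rows in knockdown lists 2 and 3, with authors' p-values of 2.8e-08 and 0.0095, at chr5:150526040-150526154 on the minus strand. RF00416 (ENSRNOG00000054612, mean 0.363 FPKM) had rows at chr3:4094087-4094219 in control list 3 (authors' p-value 0.0011) and knockdown list 2 (1e-228). An overlapping RF00560 identifier (ENSRNOG00000056973, mean 0 FPKM) at chr3:4094088-4094219 had rows in the same lists, with authors' p-values of 0.0011 and 6.3e-25, so the value at this place differed widely with the identifier. Input FPKM near 0 beside an ac4C row was seen for these genes in tables made separately by the authors, and how each handled reads that match several copies was not given in the sources used here.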
